A study of Mus musculus with 12 samples.

Results

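Red blood cell precursors are a minor component of an embryonic testis sample, and their transcripts were followed here through 8 erythroid genes other than the globins: *Alas2*, *Ahsp*, *Slc4a1*, *Klf1*, *Gata1*, *Epor*, *Tfrc* and *Ank1*. The members were taken by their symbols. Of the 8 listed symbols, 7 had a row among the 35976 symbols counted in all 12 libraries. *Ahsp* was not analysed here. The 7 genes were compared over the F1 control, F1 *thia*, F3 control and F3 *thia* groups.

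RNA was sequenced from testes of outbred Swiss (RjOrl) mouse embryos at E15.5, with 3 libraries in each of the 4 groups and a pool of 3 embryos behind each library. Pregnant F0 females of the *thia* groups received thiacloprid (*thia*), a neonicotinoid insecticide, by gavage at 6 mg/kg/day in olive oil from E6.5 to E15.5. Females of the control groups received the oil alone. The F1 embryos were themselves in the womb during the gavage, while F3 embryos descended from F0 through the male line by crosses of F1 and F2 males with untreated unrelated females and were not exposed. All 4 groups therefore share the strain, the stage and a gavage of the F0 females, and pooling hides the spread between single embryos.

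At this stage of mouse development the fetal liver is the main site of red cell production, and maturing red cells circulate through every organ. Erythroid differentiation is driven by the transcription factors GATA1 and KLF1 and by erythropoietin acting on its receptor EPOR. The maturing cell imports iron through the transferrin receptor, makes haem and haemoglobin, and builds a membrane whose anion exchanger is tied to the spectrin skeleton by ankyrin. Red cells made in the fetal liver leave it without a nucleus but still hold RNA for a time, so that both precursors and circulating reticulocytes can contribute erythroid transcripts.

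GATA1 recognises short sites with the core GATA, and KLF1 recognises CACC-type sites, so the stretch before each gene's start was searched for such letters on both strands. RefSeq (GRCm38.p6) gave a promoter window for 5 of the 7 genes, *Alas2*, *Klf1*, *Gata1*, *Epor* and *Tfrc*, the last with 2 start sites. The windows of *Slc4a1* and *Ank1* were not analysed here. The 250 bases before the start were read for 4 spellings of the GATA site, in which GATA follows an A or a T and is followed by an A or a G. A spelling was present before *Alas2*, *Klf1* and *Epor*, and 26.6% of all 32817 promoter windows of the same length held at least 1. The matched bases, in capitals with 20 bases on each side, are shown because these 3 genes carry the same kind of site. Each was read along the gene's own strand, and each match lies on the opposite strand. They cover chrX:150547311-150547356 on the plus strand, chr8:84901882-84901927 on the plus strand and chr9:21963605-21963650 on the minus strand.
*Alas2*: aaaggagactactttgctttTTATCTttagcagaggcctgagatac
*Klf1*: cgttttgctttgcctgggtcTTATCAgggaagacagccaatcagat
*Epor*: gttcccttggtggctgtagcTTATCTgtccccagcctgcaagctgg

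The first base of the match lay 86 bases before the RefSeq start in *Alas2*, 80 bases in *Klf1* and 54 bases in *Epor*. The GENCODE M21 spans given below for these 3 genes begin at other positions, so the distances hold for the RefSeq starts only. The CACC-type letters CCNCNCCC were found before *Alas2*, *Gata1*, *Epor* and *Tfrc*, some of them overlapping one another, and occurred in 45.9% of all windows. Both kinds of letters stood before *Alas2* and *Epor*, against 8.20% of all windows. In *Gata1* the search found 3 CCNCNCCC matches on the gene's own strand, which are shown in capitals because this gene had the most compact run of them without an overlap. The stretch is chrX:7967917-7968001 on the minus strand. The RefSeq start used for this window lies inside the span that GENCODE M21 gives for *Gata1*, which begins at an earlier start site.
*Gata1*: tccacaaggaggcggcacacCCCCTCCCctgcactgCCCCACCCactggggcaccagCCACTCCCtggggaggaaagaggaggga

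These letters describe the sequence alone, and no binding was measured.

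The libraries held between 25081647 and 68996146 counts, and the 7 genes together took between 0.0284% and 0.339% of them. The lowest count of any of the 7 in any library was 64, for *Gata1* in F1 control replicate 3. Levels are given as CPM, a gene's count as a share of the library's total after TMM scaling. Markers of the expected testis cells were present in every group, with summed CPM of 6 Leydig cell markers of 2294 to 7146 and of 8 Sertoli cell markers of 751 to 1817 over all 12 libraries. Markers of fetal hepatocytes, which are not testis cells, were also found, and their summed CPM over 8 genes ran from 86.1 to 5850. The same 2 libraries of F3, control replicate 3 and *thia* replicate 2, stood above the rest of F3 both in the hepatocyte markers and in the erythroid genes, so the F3 results for the 7 genes are also given without one or both of them, and those of the wider lists without both. In whole-tissue RNA, fewer erythroid cells and less RNA per erythroid cell cannot be told apart.

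*Alas2* (chrX:150547375-150570638, plus strand, mm10) encodes the erythroid form of the first enzyme of haem synthesis. Its level was 372, 182 and 126 CPM in F1 control replicates 1 to 3, and 297, 413 and 172 CPM in the F1 *thia* libraries. In F3 it was 1574, 1484 and 1642 CPM in the controls and 948, 1946 and 1049 CPM in the *thia* libraries. Every F3 library was above every F1 library, and within each generation the control and *thia* libraries overlapped. The F3 controls were the tightest group, at 1567 ± 79.3 CPM (SD, n = 3), while F3 *thia* was at 1314 ± 549 CPM, with replicates 1 and 3 below all 3 controls and replicate 2 above them. The exons of *Alas2* overlap those of *Apex2* and *Mir3620* on the other strand, and since the strand setting of the counting is not stated, reads of these genes may not be fully separated.

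*Slc4a1* (chr11:102348824-102366203, minus strand) encodes band 3, the anion exchanger of the red cell membrane. It stood at 119, 68.3 and 51.4 CPM in the F1 controls and 47.5, 131 and 35.7 CPM in F1 *thia*. The F3 controls were at 384, 373 and 622 CPM, and the F3 *thia* libraries at 318, 1236 and 249 CPM. As with *Alas2*, all F3 libraries were above all F1 libraries. The F3 *thia* group had the widest spread, 601 ± 551 CPM (SD, n = 3), since replicate 2 was 4.36 times the mean of the other 2.

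*Ank1* (chr8:22974844-23150497, plus strand) encodes erythroid ankyrin, which anchors band 3 to spectrin, and is also transcribed in muscle and nerve. Its level was 20.9, 16.6 and 15.9 CPM in the F1 controls and 12.2, 25.5 and 12.8 CPM in F1 *thia*. In F3 it was 19.6, 22.7 and 38.0 CPM in the controls and 24.9, 83.7 and 22.4 CPM in *thia*. It was the only 1 of the 7 genes whose F1 and F3 libraries overlapped both among the controls and among the *thia* libraries. Its exons overlap those of the antisense gene *Gm15816*, with the same limit on strand as for *Alas2*.

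*Klf1* (chr8:84901928-84905291, plus strand) encodes the erythroid Krüppel-like factor that activates adult beta-globin and many red cell genes. It was low in F1, at 6.40, 2.67 and 2.74 CPM in the controls and 1.52, 4.09 and 1.81 CPM in *thia*. It was 15.7, 11.9 and 37.3 CPM in the F3 controls and 11.3, 77.7 and 11.1 CPM in the F3 *thia* libraries. *Klf1* had the widest range of the 7 genes, with the highest library, F3 *thia* replicate 2, at 51.2 times the lowest, F1 *thia* replicate 1.

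*Gata1* (chrX:7959260-7978071, minus strand) encodes the zinc finger factor required for red cells, platelets and mast cells, and in the mouse it is also transcribed in Sertoli cells of the postnatal testis. It was at 4.26, 2.46 and 2.37 CPM in the F1 controls and 2.17, 4.29 and 2.39 CPM in F1 *thia*. The F3 controls were at 8.0, 7.87 and 17.8 CPM, and F3 *thia* at 7.79, 35.2 and 6.86 CPM. The F3 libraries lay above all F1 libraries, with control replicate 3 and *thia* replicate 2 apart from the other 4.

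*Epor* (chr9:21958897-21963506, minus strand) encodes the erythropoietin receptor, which keeps early precursors alive. Its F1 levels ran from 2.89 to 4.24 CPM in the controls and from 2.36 to 3.79 CPM in *thia*. The F3 controls were at 4.93, 4.99 and 10.9 CPM, and F3 *thia* at 5.84, 24.5 and 5.20 CPM. The generations were close: the lowest F3 library was at 4.93 CPM and the highest F1 library at 4.24 CPM.

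*Tfrc* (chr16:32608920-32632794, plus strand) encodes the transferrin receptor, through which dividing cells of every kind take up iron and which is very abundant on erythroblasts. It stood at 95.6, 60.2 and 95.8 CPM in the F1 controls and 81.7, 55.1 and 44.3 CPM in F1 *thia*. In F3 it was 91.8, 82.7 and 144 CPM in the controls and 114, 345 and 102 CPM in *thia*. F1 and F3 controls overlapped. *Tfrc* also ordered the F1 libraries differently from the other 6 genes, since its highest F1 library was control replicate 3, the lowest F1 library for *Alas2*.

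**Figure D1:**
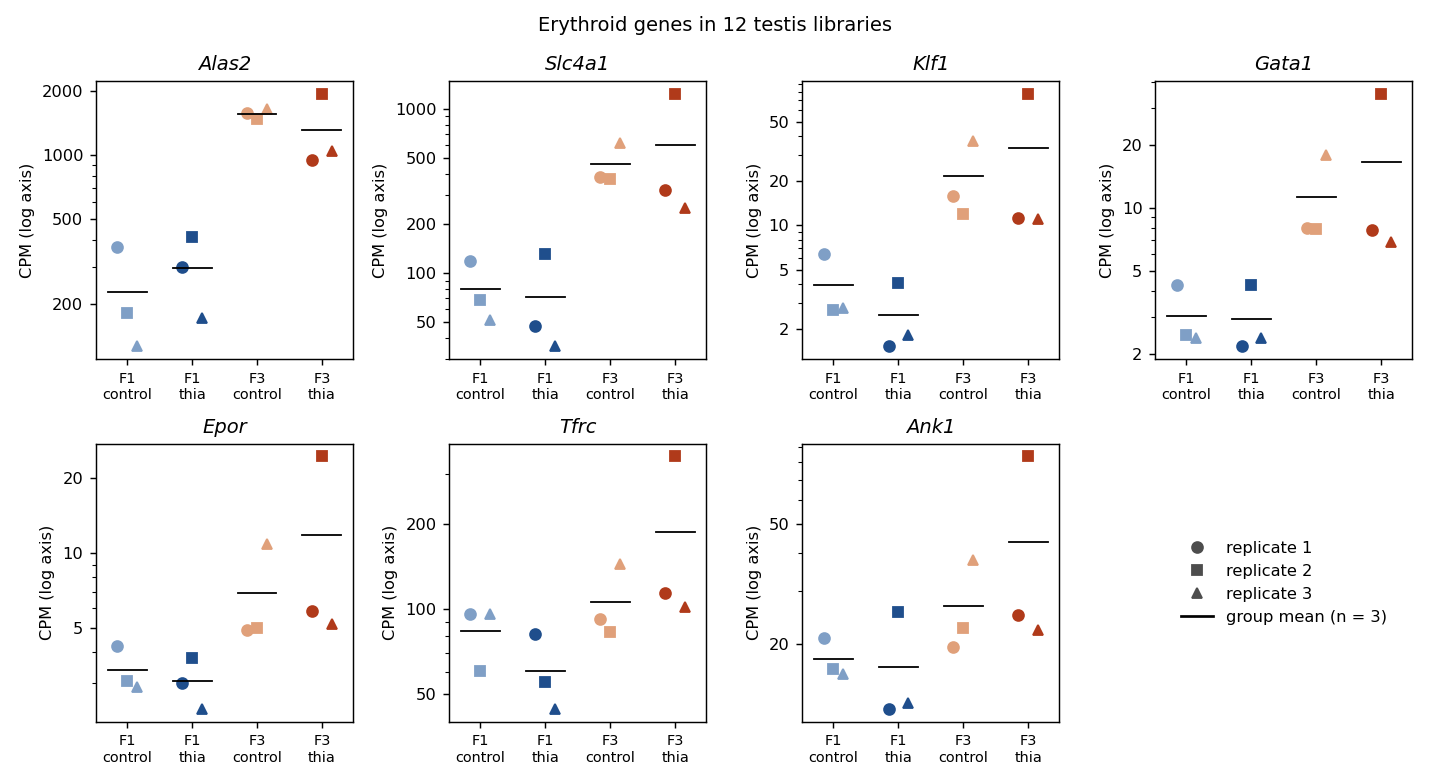
Level of each of the 7 erythroid genes in CPM on a log axis, 1 point per library with its replicate number as the marker shape, in F1 control, F1 *thia*, F3 control and F3 *thia*; black lines are group means (n = 3). *Thia* replicate 2 is the highest F3 library in all 7 panels, and control replicate 3 is the highest F3 control.

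Per kilobase of exon, which allows levels to be compared between genes, *Alas2* was the most abundant of the 7 in every group, with a mean of 652 CPM per kilobase in the F3 controls. *Slc4a1* followed at 94.0, *Tfrc* at 17.1 and *Klf1* at 14.1 CPM per kilobase in the same group. *Gata1*, *Epor* and *Ank1* had means of 4.61, 3.48 and 1.98 CPM per kilobase. In the F1 controls the means of *Slc4a1* and *Tfrc* were close, at 16.3 and 13.6 CPM per kilobase, and the remaining 4 genes were all below 3. The abundant pair of haem and membrane genes therefore stood well above the transcription factors and the receptor *Epor* in both generations.

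The question the study's design puts first is whether exposure of the F0 females changed transcription in the testis of F1 embryos. None of the 7 erythroid genes was called between F1 *thia* and F1 control at an adjusted p under 0.15 in the quasi-likelihood test of edgeR, and the share called among all 19137 genes tested was 0.0105%. The log2 fold changes ran from -0.68 for *Klf1* to 0.39 for *Alas2*, with a median of -0.15 against 0.0094 over all genes. The *Klf1* value had a standard error (SE) of 0.42 and an adjusted p of 0.642 by edgeR, and *Alas2* had an SE of 0.37 and an adjusted p of 0.739. The smallest p was that of *Tfrc*, whose log2 fold change was -0.46 (SE 0.23, edgeR unadjusted p = 0.0685, adjusted p = 0.586). At an unadjusted p under 0.05 the count of the 7 was again 0, where 8.76% of all genes passed, and DESeq2 also called 0 of the 7. The 3 *thia* and 3 control libraries overlapped in all 7 genes, and 15% of all genes tested did not overlap.

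The spread within the F1 groups was wide against these differences. Control replicate 1 and *thia* replicate 2 were the highest libraries of their groups in 6 of the 7 genes, *Tfrc* being the exception. *Alas2* in control replicate 1 was 2.41 times the mean of the other 2 controls, and *Slc4a1* in *thia* replicate 2 was 3.14 times the mean of the other 2. Hepatocyte markers, summed over 8 genes, were at 481, 124 and 205 CPM in the F1 controls and 87.6, 187 and 86.1 CPM in F1 *thia*. In the F1 controls replicate 1 was thus also the highest in hepatocyte markers, and in F1 *thia* replicate 2 was, and their part in the erythroid levels was not tested. With these 2 libraries left out, a choice made after seeing the data, 0 of the 7 genes were called, and 4 of 7 passed an unadjusted p under 0.05, where 10% of all genes did. These were *Alas2* at 0.62 (edgeR unadjusted p = 0.0302, adjusted p = 0.467), *Slc4a1* at -0.51 (adjusted p = 0.437), *Klf1* at -0.68 (adjusted p = 0.459) and *Ank1* at -0.37 (adjusted p = 0.489). The 2 libraries were left out for being highest in these genes, which narrows the spread of these genes. The 10% of all genes is therefore no like baseline, and no excess is read from the 4. On leaving out 1 library at a time, *Alas2* ran from 0.064 without *thia* replicate 2 to 0.94 without control replicate 1, *Klf1* from -1.23 without *thia* replicate 2 to -0.13 without control replicate 1, and *Tfrc* from -0.74 without *thia* replicate 1 to -0.28 without *thia* replicate 3, none of them called.

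The comparison between F3 *thia* and F3 control asks whether descendants that were never exposed differed. Again 0 of the 7 genes were called, at an adjusted p under 0.1 in edgeR, and the share called among all 18539 genes was 0%. DESeq2 called 2262 genes of the whole table but 0 of the 7. At an unadjusted p under 0.05 edgeR gave 0 of the 7, against 21.1% of all genes. The log2 fold changes ran from -0.26 for *Alas2* (SE 0.26, edgeR adjusted p = 0.612) to 0.81 for *Tfrc* (SE 0.48, adjusted p = 0.376), with a median of 0.61 against 0.0044 over all genes. *Klf1* had the largest SE, 0.82, on a log2 fold change of 0.61. All 7 genes overlapped between the groups, and 27.3% of all genes tested did not.

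*Thia* replicate 2 carried the upward values. It was the highest of all 12 libraries in 7 of 7 genes, which was so for 14.5% of the 19626 genes kept. Its ratio to the mean of the other 2 F3 *thia* libraries was 6.95 for *Klf1*, 4.80 for *Gata1*, 4.44 for *Epor*, 4.36 for *Slc4a1*, 3.54 for *Ank1*, 3.21 for *Tfrc* and 1.95 for *Alas2*. Among the F3 controls, replicate 3 was the highest in 7 of 7 genes, against 33.2% of all genes, and the order of its ratios to the other 2 again began with *Klf1* at 2.71 and ended with *Alas2* at 1.07. The haem enzyme thus varied least and *Klf1* most from library to library in F3.

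Without *thia* replicate 2 the picture in F3 changed. *Alas2* was then called, lower in *thia* with a log2 fold change of -0.65 (SE 0.10, edgeR adjusted p = 0.0586), in a fit that called 6.82% of all genes, 2.59% of them lower. *Slc4a1* stood at -0.70 with an unadjusted p of 0.0203 by edgeR, and *Klf1*, *Gata1*, *Epor* and *Ank1* were at -0.96, -0.63, -0.34 and -0.19, all uncalled. *Tfrc* was at 0.018. With F3 control replicate 3 left out as well, a choice made after seeing the data, *Alas2* was at -0.61 (SE 0.12, adjusted p = 0.0993), in a fit that called 1.1% of all genes and 0.452% lower. *Slc4a1*, *Klf1* and *Gata1* were then at -0.41, -0.30 and -0.11, and *Tfrc*, *Epor* and *Ank1* at 0.31, 0.16 and 0.17. The fold changes of 5 genes, *Slc4a1*, *Klf1*, *Gata1*, *Epor* and *Ank1*, therefore turned from positive to negative on the removal of *thia* replicate 2, and those of *Epor* and *Ank1* were positive again without both libraries. Each library was left out for being highest in these genes, which lowers the mean of its group and narrows the spread of these genes. The shares over all genes are therefore no like baseline, and the *Alas2* calls add no support for a lower level in *thia*.

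**Figure D2:**
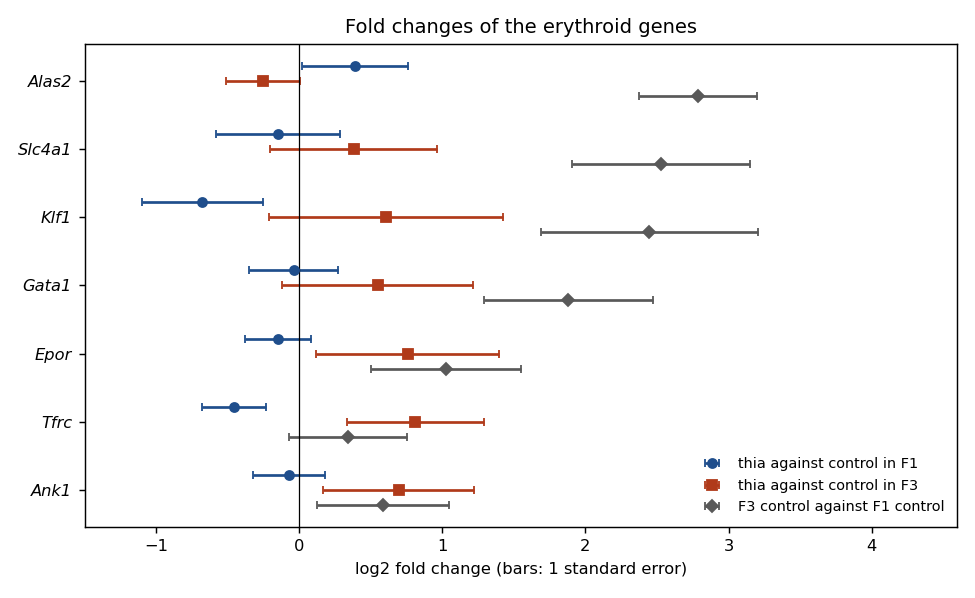
Log2 fold change of each gene with 1 SE on either side, from edgeR, for *thia* against control in F1 (circles), *thia* against control in F3 (squares) and F3 control against F1 control (diamonds). The *thia* values lie between -0.68 and 0.81 and none was called, while *Alas2*, *Slc4a1*, *Klf1* and *Gata1* were called higher in the F3 controls.

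The fold change in F3 was set against that in F1 in a fit of all 12 libraries, as a test of whether the generations responded differently. No erythroid gene was called (0 of 7, with 0.0051% of all genes called), and at an unadjusted p under 0.05 only *Tfrc* passed, where 14% of all genes did. Its difference, F3 minus F1, was 1.29 on the log2 scale (SE 0.58, edgeR unadjusted p = 0.0466, adjusted p = 0.347). Without F3 *thia* replicate 2 that difference was 0.49 with an adjusted p of 0.551 by edgeR, and without both high F3 libraries it was 0.77 (adjusted p = 0.315). *Klf1* had a difference of 1.33 with an SE of 1.05, and *Alas2* was the only gene with a negative value, -0.63 (SE 0.55). These were 0.40 and -0.99 without both high F3 libraries, and *Slc4a1* and *Gata1* were negative as well, at -0.25 and -0.057.

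The largest differences in these genes lay between the generations. F3 and F1 controls were compared in the same 12-library fit, and 4 of 7 genes were called, all higher in F3, at an adjusted p under 0.1. Of all 19626 genes, 42.3% were called, with 3912 higher and 4388 lower in F3, so that 19.9% were called higher. *Alas2* rose 6.90-fold (log2 fold change 2.79, SE 0.41, edgeR adjusted p = 0.000587) and *Slc4a1* 5.77-fold (2.53, SE 0.62, adjusted p = 0.00896). *Klf1* rose 5.45-fold (2.45, SE 0.76, adjusted p = 0.0264) and *Gata1* 3.68-fold (1.88, SE 0.59, adjusted p = 0.0278). *Epor* had a log2 fold change of 1.03 (SE 0.53, adjusted p = 0.153), *Ank1* of 0.59 (adjusted p = 0.349) and *Tfrc* of 0.34 (adjusted p = 0.557). The median of the 7 was 1.88, against -0.018 over all genes. The groups did not overlap for 5 of 7 genes, all higher in F3, and 23.3% of all genes were higher in F3 without an overlap.

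The generation difference of *Klf1* and *Gata1* was smaller without F3 control replicate 3. Without it 2 of 7 genes were called, *Alas2* and *Slc4a1*, in a fit that called 30.9% of all genes and 14.6% higher, while *Klf1* was at 1.79 (edgeR adjusted p = 0.114) and *Gata1* at 1.38 (adjusted p = 0.122). Without F3 *thia* replicate 2, which lowers the pooled spread, *Epor* was also called (1.02, adjusted p = 0.0185), and 43.2% of all genes were, 20.6% higher. With both libraries left out, 4 of 7 genes were called, where 35% of all genes were called and 16.8% higher. *Alas2* was then at 2.75, *Slc4a1* at 2.25, *Klf1* at 1.79 (edgeR adjusted p = 0.00697) and *Gata1* at 1.38 (adjusted p = 0.00595). Both libraries were left out for being highest in these genes, which narrows the spread of these genes. This fit therefore adds no support to the 4 calls. Upper quartile scaling raised the median of all genes by 0.094 on the log2 scale and turned the split of called genes to 5016 higher and 3229 lower, and the same 4 erythroid genes were called. Hepatocyte markers were also called higher in the F3 controls for 6 of 8 genes. The count was 8 of 9 for macrophage markers and 4 of 4 for the mast cell markers tested. Without both high F3 libraries these counts were 5 of 8, 7 of 9 and 4 of 4. Platelet markers were called higher for 2 of 8 genes and adrenal markers for 1 of 6. Other markers were called only lower: 7 of 8 endothelial, 6 of 8 germ cell, 4 of 8 Sertoli and 2 of 6 Leydig genes. No mesonephros marker was called. The part of any of these markers in the erythroid values was not tested. The F1 and F3 embryos were collected from different litters at different times, so the generation cannot be told apart from any difference in dissection, library preparation or sequencing between them.

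The other genes of the pathway were followed through lists, which were chosen with earlier results of these data known. No gene of the lists for the membrane and skeleton, haem synthesis, iron, transcription factors, erythropoietin and Kit signalling or red cell enzymes was called by edgeR between *thia* and control in F1 or in F3. Without both high F3 libraries, 1.1% of all genes were called between *thia* and control in F3, and 0.452% were called lower. The counts were 0 of 20 for the membrane, 2 of 18 lower for haem synthesis and 1 of 13 higher for iron. They were 1 of 18 higher for the transcription factors, 0 of 14 for signalling and 4 of 20 lower for the enzymes. Both libraries were left out for being highest in the erythroid genes, which narrows the spread of genes that vary with those genes. The shares over all genes are therefore no like baseline, and no excess is read from these counts. Between the controls of the 2 generations many were called, and the lists differed widely in how many. For each list below, the shares over all genes in that comparison were 19.9% called higher and 22.4% lower. Without both high F3 libraries 16.8% of all genes were called higher. For the reason given, that share is no like baseline either, and the list counts in that setting add no support to those of the main fit.

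In the membrane and skeleton list, 16 of 20 genes were called higher in the F3 controls and none lower, with a median log2 fold change of 1.47. *Epb41*, the source of protein 4.1, was at 143 ± 32.3 CPM in the F1 controls and 390 ± 37.9 in the F3 controls (SD, n = 3), and rose by 1.45 on the log2 scale (edgeR adjusted p = 0.00205). *Sptb*, encoding beta spectrin and also transcribed in muscle and nerve, was not called (0.42, adjusted p = 0.299). F3 *thia* replicate 2 was the highest of the 12 libraries in 20 of these 20 genes, against 14.5% of the 19626 genes kept. Between the controls 18 of 20 were called higher without both high F3 libraries, with a median of 1.25.

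Red cell enzymes and maturation genes were called higher in 17 of 20 cases with a median of 1.79, and none was called lower. *Ube2l6*, a ubiquitin-conjugating enzyme, rose by 2.07 (edgeR adjusted p = 0.000213). *Isg20*, an exonuclease, rose by 3.34 (adjusted p = 0.000713), and *Prdx2*, an abundant peroxidase of red cells, by 1.29 (adjusted p = 0.000295). *Bnip3l*, needed to clear mitochondria from reticulocytes, rose by 0.93 (adjusted p = 0.000221). *Bnip3l* and *Ube2l6* were also lower without an overlap in F3 *thia* than in F3 control, at -0.40 and -0.53, but at adjusted p of 0.158 and 0.173 by edgeR. Of all genes tested, 27.3% did not overlap between these groups. Without both high F3 libraries *Bnip3l* and *Ube2l6* were called lower, at -0.55 (edgeR adjusted p = 0.097) and -0.76 (adjusted p = 0.0954). These libraries were left out after seeing the data, for their erythroid levels, so the 2 calls add no support for an effect of *thia*. Between the controls, with the same libraries left out, 18 of 20 genes of the list were called higher and 1 lower, with a median of 1.51.

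Haem synthesis was more divided, with 8 of 18 genes called higher, 2 lower and a median of 0.37. *Fech*, the last enzyme of the pathway, rose by 2.06 (edgeR adjusted p = 0.0013) and *Slc25a37*, the mitochondrial iron importer of erythroid cells, by 1.76 (adjusted p = 0.0156). *Alas1*, the form of the first enzyme used outside the red cell, fell by 0.45 (adjusted p = 0.0489). *Alas2* and *Alas1* thus went in opposite directions between the control groups. The count was 10 higher and 2 lower without both high F3 libraries, with a median of 0.38.

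Of the iron genes 6 of 13 were called higher, with a median of 0.66. The most abundant were the ferritin chains, *Ftl1* at 0.95 (edgeR adjusted p = 0.000604) and *Fth1* at 1.05 (adjusted p = 0.000756). *Trf*, encoding transferrin, the ligand of the transferrin receptor made largely by the liver, was at 324 ± 320 CPM in F3 *thia* and 108 ± 86.9 in the F3 controls (SD, n = 3). Its log2 fold change was 1.57, with an adjusted p of 0.3 by edgeR. The libraries were at 163, 692 and 116 CPM in F3 *thia* and 59.8, 56.5 and 209 in the controls, and without both high libraries the log2 fold change was 1.27 and called (edgeR adjusted p = 0.0954). The libraries left out were those with the highest *Trf* level in each group, which narrows its spread, so this call adds no support. With the same libraries left out, 6 of 13 iron genes were called higher between the controls, with a median of 0.46.

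Among 18 other transcription factors 8 were called higher, with a median of 0.47. *E2f2*, a cell cycle factor, rose by 1.97 (edgeR adjusted p = 0.00837), and *Tal1*, a partner of GATA1, rose by 1.33 (adjusted p = 0.0815). The widely expressed cofactor *Ldb1* was at -0.17 (adjusted p = 0.123). In F3 *thia* against F3 control, *Cbfa2t3*, a corepressor of the GATA1 complex, was higher in all 3 libraries at a log2 fold change of 0.79, with an adjusted p of 0.105 by edgeR, and it was called without both high F3 libraries, at 1.00 (adjusted p = 0.0954). That call rests on a choice of libraries made after seeing the data and adds no support. Of all genes tested, 27.3% did not overlap between F3 *thia* and F3 control. With these libraries left out, 8 of 18 factors were called higher between the controls and 2 lower, with a median of 0.36. *Cbfa2t3* was among those called lower there, at -0.50 (edgeR adjusted p = 0.0952), unlike the erythroid genes called.

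The erythropoietin and Kit signalling list, whose genes serve many cell types, showed 3 of 14 genes called higher and 4 lower, with a median of -0.051. These shares are near those over all genes, of which 19.9% were called higher and 22.4% lower. Without both high F3 libraries 3 were called higher and 3 lower, with a median of -0.036. *Bcl2l1*, encoding the survival factor BCL-XL, rose by 0.53 (edgeR adjusted p = 0.0114). *Socs2*, an inhibitor of cytokine signalling, fell by 0.84 (adjusted p = 0.00853), and *Kitl*, the ligand of the receptor KIT made by Sertoli cells, fell by 0.83 (adjusted p = 0.0413), a call lost without both high F3 libraries (-0.73, adjusted p = 0.119).

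Among the erythroid lists, the globins had the highest median log2 fold change between the controls. Of 10 globin genes 9 were tested and 7 were called higher in the F3 controls, with a median of 2.66. The globins took 0.546 to 1.98% of counts in the F1 libraries and 4.34 to 7.25% in F3. *Hba-a1* and *Hba-a2* are near-identical copies, so the division of reads between them is uncertain. In F3 the embryonic globin *Hbb-y*, expressed by primitive red cells of the yolk sac, was at 267 ± 130 CPM in the controls and 46.1 ± 4.29 CPM in *thia* (SD, n = 3). The groups did not overlap, and the log2 fold change was -2.54 (edgeR adjusted p = 0.101). *Hba-x* was at -1.64 (adjusted p = 0.102) and *Hbb-bh1* at -1.33 (adjusted p = 0.111), also without an overlap. Of all genes tested, 27.3% did not overlap between these groups. F3 *thia* replicate 2, the highest library for the 7 erythroid genes, was at 50.6 CPM for *Hbb-y*, with the other 2 at 42.1 and 45.5 CPM. Without both high F3 libraries *Hbb-y* was called at -2.34 (edgeR adjusted p = 0.0964) and *Hba-x* at -1.76 (adjusted p = 0.0954), while *Hbb-bh1* was at -1.19 (adjusted p = 0.148). The 2 globin calls likewise rest on libraries left out after seeing the data. Between the controls 7 of 9 globins were called higher with those libraries left out, with a median of 2.45.

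The ratio between erythroid genes within a library does not depend on scaling. *Klf1* was set against *Alas2*, a pair chosen after the values were seen. *Klf1* gave 17.2, 14.7 and 21.7 counts per 1000 *Alas2* counts in the F1 controls and 5.10, 9.91 and 10.5 in F1 *thia*, so that all 3 *thia* libraries were below all 3 controls. In the F3 controls the ratio was 9.97, 8.01 and 22.7, and in F3 *thia* it was 11.9, 39.9 and 10.6, with the 2 groups overlapping. For *Slc4a1* the counts per 1000 *Alas2* counts ran from 320 to 407 in the F1 controls and from 160 to 317 in F1 *thia*, and in F3 *thia* they reached 635 in replicate 2 against 238 and 336 in the other libraries. The ratios of *Gata1*, *Epor*, *Tfrc* and *Ank1* to *Alas2* overlapped between the F1 groups, so that 2 of 6 genes were lower without an overlap. Of all genes set against *Alas2* in the same way, 0.977% were. That share is no like baseline, because *Alas2* itself ranged 2.94-fold in the F1 controls and 2.39-fold in F1 *thia*. Genes that vary with *Alas2* from library to library give tighter ratios than other genes, so no excess is read from it. In F3, *thia* replicate 2 and control replicate 3 were each the highest of their group in the *Klf1* and *Slc4a1* ratios. Control replicate 3 gave 378 *Slc4a1* counts per 1000 *Alas2* counts, against 244 and 251 in the other controls. For *Gata1*, *Epor*, *Tfrc* and *Ank1* the ratios of F3 *thia* replicate 2 lay within the range of the F1 libraries. These 2 F3 libraries thus differed from the rest of their groups in the proportions of erythroid transcripts as well as in their level.

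**Figure D3:**
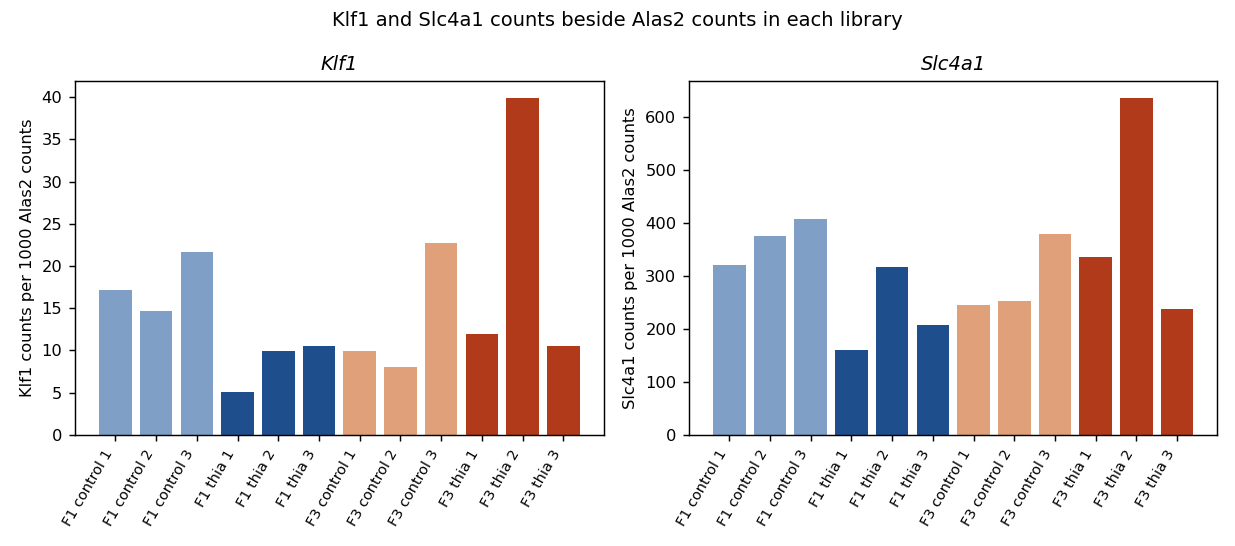
*Klf1* counts (left) and *Slc4a1* counts (right) per 1000 *Alas2* counts, 1 bar per library, with F1 in blue and F3 in orange and the darker shade for *thia*. The 3 F1 *thia* bars for *Klf1* reach 5.10 to 10.5 and the 3 F1 control bars 14.7 to 21.7, and F3 *thia* replicate 2 is the highest bar in both panels.

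The 5 genes whose level was most like the erythroid members were sought over all 12 libraries among 19619 other genes, by Pearson's correlation of log2 CPM with the mean of the standardised *Alas2*, *Slc4a1* and *Klf1* levels. Among them were *Kel* (r = 0.997), *Car2* (0.996), *Epb42* (0.992) and *E2f2* (0.991). *Kel* encodes the Kell blood group protein, *Car2* a carbonic anhydrase and *Epb42* the membrane protein 4.2. These correlations describe 12 libraries that share the large step between generations. With each group centred on its own mean the first 5 were *Kel* (0.982), *Gpx1* (0.978), *Ache* (0.976), *Car2* (0.975) and *Trim58* (0.975).

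Markers of other cells were compared across the same libraries. All 8 hepatocyte markers were highest in F3 *thia* replicate 2, where *Alb* was at 2327 CPM and *Afp* at 1736 CPM, 6.34 and 6.08 times the mean of the other 2 F3 *thia* libraries. Their summed level in the 12 libraries was 124 to 481 CPM in the F1 controls, 86.1 to 187 in F1 *thia*, 426 to 1954 in the F3 controls and 700 to 5850 in F3 *thia*. The summed hepatocyte markers named the same highest library in each of the 4 groups as *Alas2*, *Slc4a1*, *Klf1*, *Gata1*, *Epor* and *Ank1* did. *Alas2* lay between 1484 and 1642 CPM in the 3 F3 controls, whose hepatocyte sums ran from 426 to 1954 CPM. Control replicate 3, with the highest of these sums, was the highest F3 control in all 7 genes. *Klf1* was at 37.3 CPM there, against 15.7 and 11.9 CPM in the other controls.

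F3 *thia* replicate 2 was also the highest library for 7 of 9 macrophage markers and for 6 of 6 platelet markers above 1 CPM. It was the highest for 0 of 8 Sertoli, 0 of 6 Leydig, 0 of 8 germ cell and 0 of 8 endothelial markers. It was the highest for 0 of 6 adrenal markers and 0 of 4 mesonephros markers as well. Mast cell markers were low, at 2.11 to 30.8 CPM in sum, and none of 3 was highest in that library. Adrenal and mesonephros markers were at 30.1 to 115 and 39.8 to 59.5 CPM in sum. Macrophage markers summed to 76.4 to 115 CPM in F1 and 140 to 266 in F3, and platelet markers to 9.16 to 17.3 and 17.9 to 41.6 CPM. The part of hepatocyte, macrophage and platelet markers in the level of the erythroid genes was not tested.

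**Figure D4:**
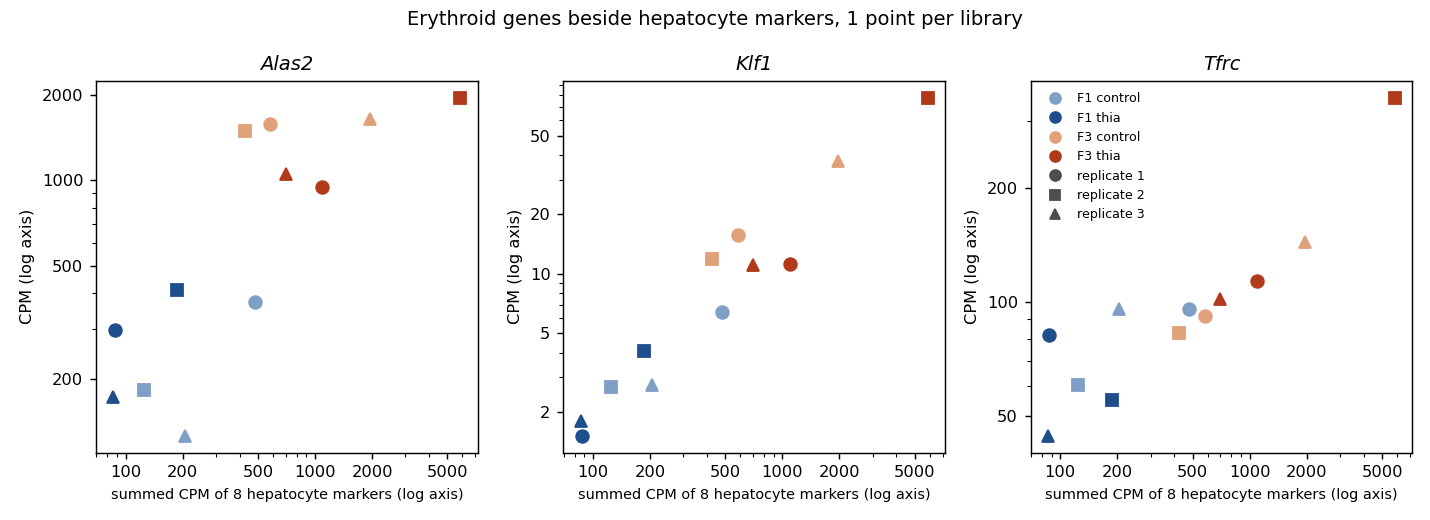
CPM of *Alas2*, *Klf1* and *Tfrc* (vertical, log axis) against the summed CPM of 8 hepatocyte markers (horizontal, log axis), 1 point per library, with colour for the group and marker shape for the replicate. F3 *thia* replicate 2, at 5850 CPM of hepatocyte markers, is the upper right point in each panel. The 3 F3 controls differ little in *Alas2* over 426 to 1954 CPM, while their *Klf1* runs from 11.9 to 37.3 CPM.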

How the data were processed

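RNA was extracted from testes pooled from 3 embryos and made into directional libraries, 3 per group in 4 groups. The authors aligned the paired-end stranded reads to mm10 with HISAT2 2.1.0 and assigned them to refGene symbols with featureCounts, and the deposited values are unscaled counts. The strand and pairing options of the counting are not given in the sources used here. The members and gene lists were chosen with earlier results of these data known.

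Tests were run in edgeR 4.0.16 under R 4.3.3 (filterByExpr at a minimum count of 10, TMM, quasi-likelihood test, Benjamini-Hochberg), as thiacloprid against control within each generation and, for the other comparisons, in one fit of 12 libraries. A gene was called at an FDR of 0.15 in F1 and 0.1 elsewhere. The SE was derived from that test. P-values measure the spread between pools. Alternatives were DESeq2 1.42.0 (Wald test, size factors), upper quartile scaling, scaling without the globins, a fit with no filter, a filter of 10 counts in each library, a joint fit, an FDR of 0.05, a replicate block and leaving out each library. Of 195 listed genes 194 had a row, 2 of them under a RefSeq synonym. Named are the members, the globins, the most abundant and lowest-p genes of each list and the 5 most alike. Some genes under this rule are not reported here. Ratios to *Alas2* were chosen after the values were seen. Replicates differed by more than sampling noise (chi-square per degree of freedom of 17.3 or more). Gene positions came from GENCODE M21. The code was tested on simulated data.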

Additional observations from a re-analysis of the deposited data

Results flagged for a closer look

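*Pax8*, one of the mesonephros markers used to check the tissue, lay above all controls in the 3 F1 *thia* libraries and below all controls in the 3 F3 *thia* libraries. The difference of its log2 fold changes, F3 minus F1, was -0.68, and it was not called (edgeR adjusted p = 0.259). Control and *thia* libraries did not overlap, in either direction, for 15% of all genes tested in F1 and 27.3% in F3. The share of all genes apart in opposite directions was not counted, so nothing is read from *Pax8*. No erythroid gene moved in opposite directions in this way.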

How the results depend on the processing

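Scaling by DESeq2 size factors or without the globins changed no call among the 7 erythroid genes, and the alternatives without a left-out library gave 0 of 7 called in F1, in F3 and for their difference, and 4 of 7 between the controls. Across all genes, 2 were called in F1, and this count became 243 with no filter, 193 with DESeq2, 0 with all 12 libraries in one fit, 0 to 20 on leaving out 1 library and 7 without both high F1 libraries. The count of 0 in F3 (3906 at an unadjusted p under 0.05) became 520 with upper quartile scaling, 569 with no filter, 333 with at least 10 counts in every library, 2262 with DESeq2, 1936 in the joint fit, 0 to 1294 on leaving out 1 library and 207 without both high F3 libraries. For the difference between generations 1 gene became 638 with DESeq2, 0 to 4 on leaving out 1 library and 2 without both high F3 libraries. The cause was not tested.

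On leaving out 1 library, 0 to 1 of the 7 genes were called in F3 and 2 to 5 between the controls, and without both high F3 libraries 1 was called in F3. Over the fits that left out 1 library, the log2 fold change in F1 ran from -0.92 to 0.26 for *Slc4a1*, -0.40 to 0.29 for *Gata1*, -0.33 to 0.043 for *Epor* and -0.50 to 0.11 for *Ank1*, with the reversed values without control replicate 1 or *thia* replicates 1 or 3, and from 0.064 to 0.94 for *Alas2*, -1.23 to -0.13 for *Klf1* and -0.74 to -0.28 for *Tfrc*, with no reversal. In F3 it ran from -0.70 to 0.75 for *Slc4a1*, -0.96 to 1.27 for *Klf1*, -0.63 to 1.06 for *Gata1*, -0.34 to 1.25 for *Epor* and -0.19 to 1.05 for *Ank1*, and the difference between generations from -0.53 to 1.33, -0.25 to 1.98, -0.56 to 1.12, -0.16 to 1.41 and -0.091 to 1.21 in the same order, each reversed only without F3 *thia* replicate 2. Without both high F3 libraries *Slc4a1*, *Klf1* and *Gata1* reversed to -0.41, -0.30 and -0.11 in F3, and *Slc4a1* and *Gata1* to -0.25 and -0.057 in the difference.

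The replicate numbers did not pair the samples: deviations of same-numbered control and *thia* libraries correlated at -0.043, -0.039 and 0.032 in F1 and at 0.195, -0.368 and -0.238 in F3, and not every library correlated best with its own number. A fit with the replicate number as a block called 3 genes in F1 and 0 in F3, with 0 of the 7 erythroid genes in each. Counts of *Gata1*, *Klf1* and *Epor* under 100 in the shallowest library limit their precision in F1.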
